A study of Rattus norvegicus with 8 samples.

Results

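The ErbB receptors and the growth factors that bind them were examined in the established rat liver cell line BRL-3A. The group was defined by name, as every array probe named Egfr, Erbb2, Erbb3, Hbegf, Areg, Ereg, Btc or Tgfa. No probe value entered that rule, but the members were listed with earlier results of these data known. It held 8 genes, 9 probes and 27 spots, of 17542 named genes, 41012 probes and 43379 spots on the array. There were 4 arrays of cells that received an siRNA to lnc19959.2, a long noncoding RNA (siRNA), and 4 arrays of cells whose transfection was labelled NC. Both groups are labelled as liver tissue at 48 h, and all siRNAs were delivered with lipofectamine 2000. A single siRNA is named, and the labels say neither what NC contained nor whether arrays of a group came from separate cultures.

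The ErbB receptors are membrane tyrosine kinases that pair up when a ligand binds and then signal through the Ras-ERK and PI3K-Akt routes. Erbb2 has no known ligand of its own and acts as a partner of the other receptors, while Erbb3 has a weak kinase and relies on its partner. The ligands are made as membrane-anchored precursors that ADAM proteases cut free, and in the liver the family is known for its part in hepatocyte proliferation during regeneration.

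The array had no probe named lnc19959.2, and its level after the siRNA was not measured here. A mean of 56.9% ± 1.63 of spots lay well above background on siRNA arrays and 61.4% ± 3.03 on NC arrays (SD, n = 4 each), by the scanner software's own mark. The 4 siRNA arrays shared a slide and a scan, and the 4 NC arrays shared a different slide and scan. Effects of group, slide and scan therefore cannot be told apart in any result that follows. Among liver cell markers, 3 of 10 hepatocyte genes were measured, and the secreted-protein genes Alb, Ttr, Apob, Serpina1, Tf and Ahsg, with Tat, were below the background filter. The summed linear signal of the measured hepatocyte genes, in units of each array's 75th percentile, was 4.49 to 6.39 on siRNA arrays and 0.873 to 1.02 on NC arrays, with 2 genes higher and 1 lower. The same sum over 7 of 9 fibroblast and stellate cell genes was 312 to 328 on siRNA arrays and 266 to 294 on NC arrays, with 3 higher and 1 lower. Endothelial genes (4 of 5 measured, 2 higher and 2 lower) summed to 3.07 to 4.22 on siRNA arrays and 1.50 to 2.07 on NC arrays. Cholangiocyte genes (3 of 5, 1 higher and 2 lower) summed to 4.24 to 4.85 on siRNA arrays and 2.11 to 2.36 on NC arrays. Leukocyte genes (2 of 6, with 1 lower) summed to 5.13 to 6.20 on siRNA arrays and 6.40 to 7.24 on NC arrays, and Ptprc, Cd3e and Csf1r were among those below the background filter. In every list but the leukocyte one, genes were called in both directions, so these sums do not stand for all genes of a list. The part of these marker differences in the results below was not tested.

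Levels are given as log2 signal, the log2 of a probe's processed intensity minus the array's own 75th percentile. A difference is siRNA minus NC on that scale. Probes entered the test if they were well above background on at least 3 of the 4 arrays of either group. A probe was called at an adjusted p under 0.05 in limma, with Benjamini-Hochberg adjustment over all 24853 tested probes. Each probe reads its own stretch of 60 bases, so levels of different probes are not set against each other.

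Most members were read by 1 probe, so the identity of that probe carries the result. The sequences of 4 probes are shown, 5′ to 3′, with no letters capitalised. They are those of Egfr and Erbb2 that were printed 10 times on every array, and those of Btc and Ereg, whose signals were at or near background. Positions come from the array's annotation, on the rn4 build; exon and UTR annotation of that build was not used here.
Egfr (A_44_P194138, chr14:97786789-97787499, + strand): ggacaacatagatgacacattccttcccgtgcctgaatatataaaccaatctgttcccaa
Erbb2 (A_44_P118540, chr10:87241824-87241883, + strand): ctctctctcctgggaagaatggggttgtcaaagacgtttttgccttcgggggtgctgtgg
Btc (A_43_P12186, chr14:18233593-18233652, + strand): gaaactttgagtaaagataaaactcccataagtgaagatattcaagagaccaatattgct
Ereg (A_44_P540992, chr14:18521343-18522341, - strand): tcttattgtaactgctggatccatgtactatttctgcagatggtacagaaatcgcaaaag
The placements of the Egfr, Ereg and Erbb3 probes span 711, 999 and 251 bases of the genome, more than the 60 bases of the probe, so each is split over separate stretches of the chromosome. The other probes lay at chr14:97788051-97788110 (second Egfr probe, A_44_P346408, + strand), chr7:1859093-1859343 (Erbb3, - strand), chr18:29143654-29143713 (Hbegf, - strand), chr14:18466438-18466497 (Areg, - strand) and chr4:120437505-120437564 (Tgfa, + strand).

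Of the 8 members, 5 had a probe that entered the test. The receptors Egfr and Erbb2 were called higher after the siRNA and the ligands Hbegf, Areg and Btc lower. The receptor Erbb3 and the ligands Ereg and Tgfa were not well above background on any of the 8 arrays. These counts are read against a comparison in which 64.7% of 11476 measured genes were called, 35.7% higher and 29.0% lower, and in which 62.1% of genes had arrays that did not overlap between groups. Over all tested probes 61.7% were called. In RNA from a whole culture, fewer cells making a transcript and less transcript per cell cannot be told apart.

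**Figure D1:**
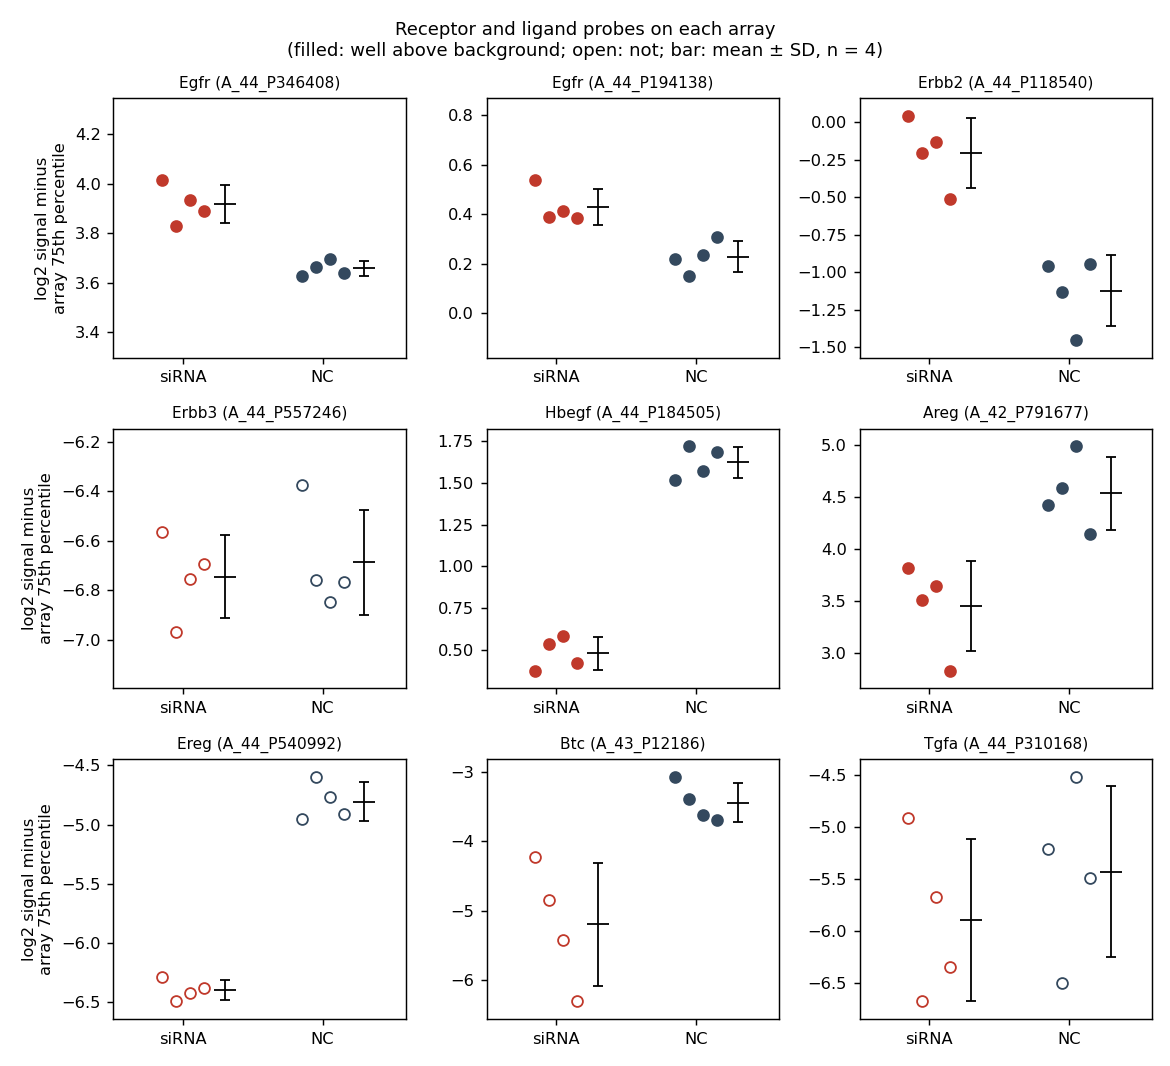
Log2 signal (y axes, relative to the array's 75th percentile) of each of the 9 member probes, with siRNA arrays in red on the left and NC arrays in dark grey on the right of each panel; filled points were well above background, open points were not, and bars give the mean and SD of 4 arrays. The Hbegf arrays sit at 0.37 to 0.58 with siRNA and at 1.52 to 1.72 with NC, and all points of Erbb3, Ereg and Tgfa are open.

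Egfr, the receptor that Hbegf, Areg and Btc bind, was higher by a small margin on both of its probes. Probe A_44_P346408 read 4.02, 3.83, 3.94 and 3.89 on siRNA arrays, against 3.63, 3.66, 3.70 and 3.64 on NC arrays. Every siRNA array lay above every NC array. The difference was 0.26 ± 0.05 (SE), 1.20-fold, with an adjusted p of 0.00326 in limma. The probe printed 10 times, A_44_P194138, read 0.54, 0.39, 0.41 and 0.38 on siRNA arrays, against 0.22, 0.15, 0.23 and 0.31 on NC arrays. The lowest siRNA array exceeded the highest NC array by 0.08 only. Its difference was 0.20 ± 0.06 (SE), 1.15-fold, with an adjusted p of 0.0147. Scaling on probes bright on all arrays ended the call of this probe (0.12, adjusted p 0.114). Small differences of this kind were common, since 60.4% of tested probes differed by at least as much as A_44_P346408 in one direction or the other.

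Erbb2, the partner receptor, showed a larger difference than Egfr. It read 0.05, -0.21, -0.13 and -0.51 on siRNA arrays, against -0.96, -1.13, -1.46 and -0.95 on NC arrays. The groups did not overlap, with a gap of 0.43 that was narrower than the range of either group. Means were -0.20 ± 0.23 with siRNA and -1.12 ± 0.24 with NC (SD, n = 4 each). The difference was 0.92 ± 0.15 (SE), 1.90-fold with a 95% interval of 1.49 to 2.42, and an adjusted p of 0.00114. Of tested probes, 16.0% differed by at least as much.

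Because both receptor probes were printed 10 times per array, the spots within an array could be read one by one. The Egfr spots had an SD of 0.06 to 0.08 on siRNA arrays and 0.07 to 0.09 on NC arrays. The Erbb2 spots had an SD of 0.15 to 0.36 on siRNA arrays and 0.09 to 0.12 on NC arrays. Across 170 tested probes printed at least 5 times, the median spot SD was 0.0843 on siRNA arrays and 0.0754 on NC arrays, and 12 of the 170 had a larger mean siRNA spot SD than Erbb2. The wider Erbb2 spread came with a few dim spots on siRNA arrays, of which the lowest was -1.11, and 4 of 40 siRNA spots lay within the range of the NC spots (-1.61 to -0.79). The siRNA range, extended by those dim spots, held 23 of 40 NC spots. For Egfr, 22 of 39 siRNA spots lay within the NC range and 14 of 40 NC spots within the siRNA range. With the median over spots in place of the mean, an alternative chosen after seeing the data, the Erbb2 difference was 1.02 (adjusted p 0.000627) and that of Egfr stayed at 0.20. The spots share 1 RNA sample per array and are not replicates of a condition.

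**Figure D2:**
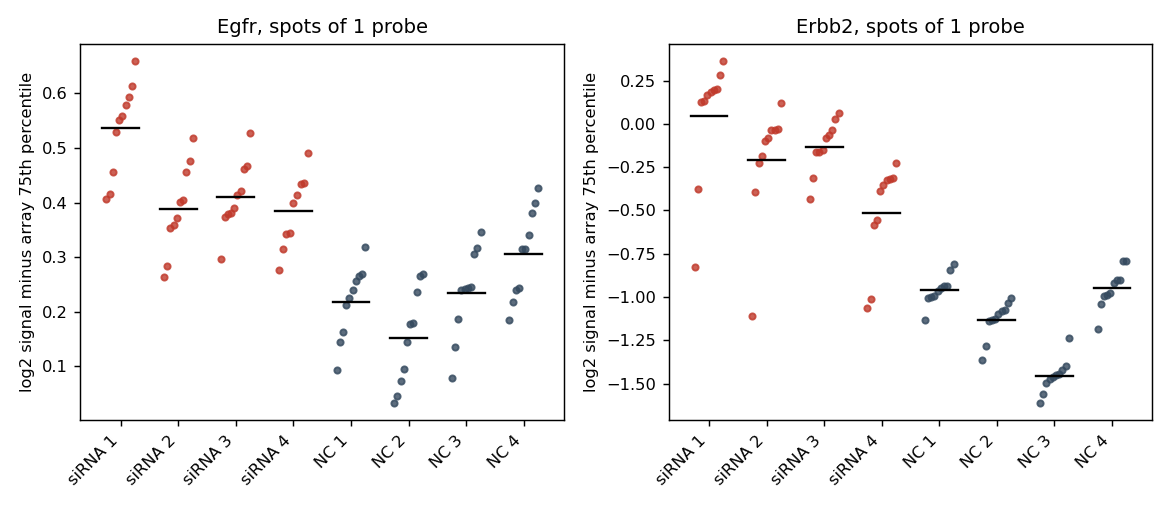
Log2 signal (y axis) of every spot of the Egfr probe A_44_P194138 (left) and the Erbb2 probe A_44_P118540 (right) on each array (x axis), siRNA arrays in red on the left and NC arrays in dark grey on the right, with the array mean as a line. Erbb2 has single low spots on siRNA arrays, the lowest at -1.11, while Egfr spots keep an SD under 0.09.

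Erbb3, which signals through its partner's kinase, was not detected above background. It read -6.56, -6.97, -6.75 and -6.69 on siRNA arrays, against -6.37, -6.76, -6.85 and -6.77 on NC arrays. The groups overlapped, and all 8 values were surrogates that the scanner software sets near 0, so they bear no fold.

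Among the ligands, Hbegf, the heparin-binding member of the family, gave the smallest adjusted p. It read 0.37, 0.53, 0.58 and 0.42 on siRNA arrays, against 1.52, 1.72, 1.57 and 1.68 on NC arrays. The gap between the groups, 0.93, was far wider than the spread within either. Means were 0.48 ± 0.10 with siRNA and 1.62 ± 0.10 with NC (SD, n = 4 each). The difference was -1.15 ± 0.07 (SE), 2.21-fold lower with a 95% interval of 1.98 to 2.48, and an adjusted p of 1.03e-05 in limma. Only 2.66% of tested probes had a p as small.

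Areg, amphiregulin, an EGFR ligand made by many epithelia, was lower by a similar margin with more spread. It read 3.82, 3.51, 3.64 and 2.82 on siRNA arrays, against 4.42, 4.59, 4.99 and 4.15 on NC arrays. The groups did not overlap, and siRNA replicate 4 was the lowest array. The difference was -1.09 ± 0.25 (SE), 2.13-fold lower with a 95% interval of 1.43 to 3.17, and an adjusted p of 0.00604. Scaling the arrays on spike-in controls gave -0.57 with an adjusted p of 0.0504, which ended the call.

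Btc, betacellulin, which binds both Egfr and Erbb4, was near the detection limit. It read -4.23, -4.84, -5.41 and -6.31 on siRNA arrays, against -3.07, -3.39, -3.61 and -3.69 on NC arrays. It was well above background on 0 of 4 siRNA arrays and on 4 of 4 NC arrays, so it entered the test only through NC and its fold is a bound. The bound sets NC against the lowest signal that counted as well above background on each siRNA array, where the probe's own signal was lower. With the scanner software's background subtraction, Btc was at least 2.02-fold lower after the siRNA, and at least 1.41-fold lower with spike-in scaling. The fitted difference was -0.81 with normexp background correction, where the call ended, and -0.43 with normexp fitted without spots that were dimmer than the background around them, where the probe was called. Measured means were -5.20 ± 0.88 with siRNA and -3.44 ± 0.28 with NC (SD, n = 4 each), with an adjusted p of 0.00661 in limma. Since the siRNA values were not well above background and the NC values admitted the probe, this p adds nothing to the bound.

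Ereg, epiregulin, was not well above background on any of the 8 arrays. It read -6.29, -6.49, -6.42 and -6.38 on siRNA arrays, against -4.96, -4.60, -4.76 and -4.91 on NC arrays. The groups did not overlap, but 3 of the 4 siRNA values were surrogates and no NC value was, so no fold is given. When every probe was tested with no filter on dim ones, the adjusted p of Ereg in limma was 2.60e-05. That p rests on the surrogates and adds nothing to the values above.

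Tgfa, transforming growth factor alpha, was likewise not well above background on any array. It read -4.91, -6.67, -5.67 and -6.35 on siRNA arrays, against -5.21, -6.50, -4.52 and -5.50 on NC arrays. The groups overlapped, and with no filter its adjusted p was 0.519. Differences of this probe were not detectable at this signal.

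An exact two-sided permutation test was run over the 70 splits of the 8 arrays. It gave its smallest possible p, 0.0286, for the 6 tested probes and for Ereg. With 4 arrays per group this p says only that the groups did not overlap, as for 62.1% of all measured genes. For Btc and Ereg it rests on siRNA values that were not well above background and adds nothing. At least 2-fold, the call was met by no receptor and by Hbegf and Areg among the ligands well above background on all 8 arrays, and by Btc, which entered only through NC, against 4.11% of all genes higher and 8.91% lower. The median difference over all measured genes was 0.04.

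**Figure D3:**
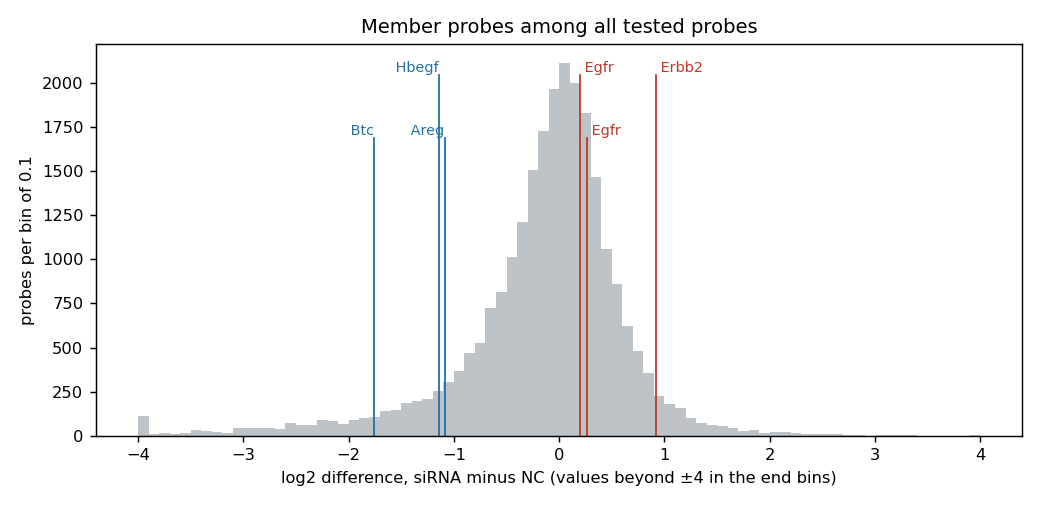
Histogram of the log2 difference, siRNA minus NC, of the 24853 tested probes (y axis, probes per bin of 0.1), with a line at each member probe, red where higher and blue where lower. Egfr lies inside the bulk of the histogram at 0.20 and 0.26, Erbb2 at 0.92 on its upper flank, and Areg, Hbegf and Btc on the lower flank.

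**Figure D4:**
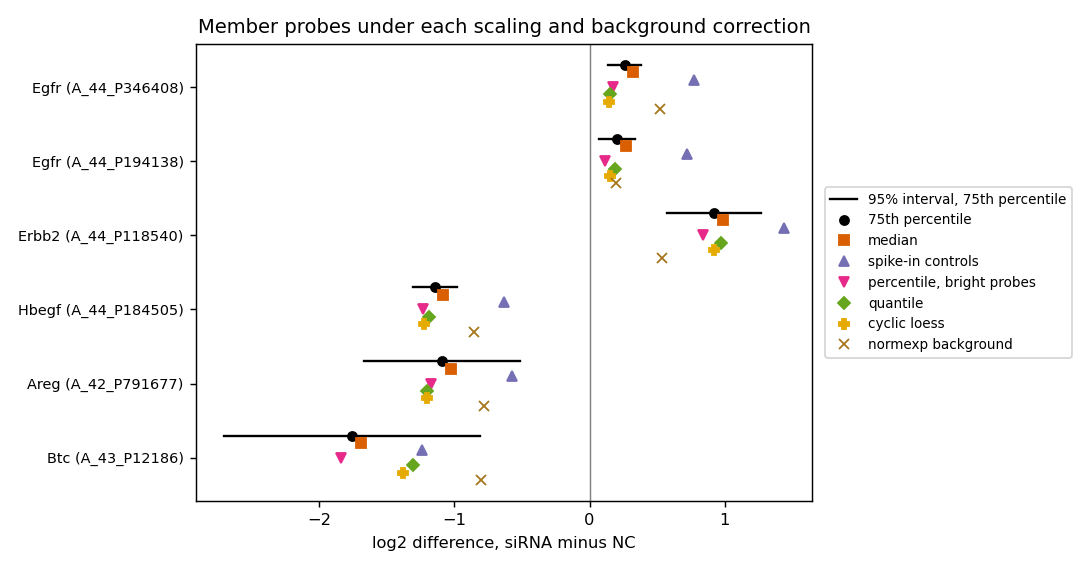
Log2 difference, siRNA minus NC (x axis), of the 6 tested member probes (rows) under the 75th percentile scaling (black, with its 95% interval as a line) and 6 alternatives (other symbols). Every symbol keeps the sign of the black one, and the spike-in scaling sits to the right of the other scalings, with Hbegf at -0.63 and Erbb2 at 1.44.

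The direction of each tested probe was the same under every scaling tried. The spike-in scaling raised the median of all probes by 0.52, and the share of called probes that were higher was then 85.1%, against 48.2% with the 75th percentile. The tested ligands lay below and Erbb2 above the median probe under both scalings. That was fixed in advance, because this scaling shifts all probes of an array by the same amount. Normexp background correction ended the calls of Egfr, Erbb2, Areg and Btc and kept that of Hbegf. NC replicate 1 held 10 spots dimmer than their local background, and once such spots were left out, a choice made after seeing the data, normexp called all 5 genes, with Btc at -0.43.

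In the GRCr8 assembly, Btc, Areg and Ereg lie next to each other on chromosome 14 with Epgn, another ligand. No further gene of the RefSeq table lies between 16992668 and 17369000, a stretch of 376333 bases. Of these 4 neighbours, Areg was called lower, a call that spike-in scaling ended. Over all measured genes, 29.0% were called lower. Btc entered the test only through NC and is given as a bound. Ereg and Epgn did not pass the background filter. Hbegf, on chromosome 18, and Egfr, elsewhere on chromosome 14 (95378626 to 95551358), are outside that stretch.

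Promoters are described for the 2 ligands that were called lower with signals well above background on all 8 arrays, Hbegf and Areg. RefSeq promoter windows on GRCr8 (250 bases before to 50 after the start) matched 6 of the 8 members, all but Erbb3 and Ereg. On both strands of each window, AP-1 (TGANTCA), CRE (TGACGTCA) and GC box (GGGCGG) letters were searched; none of these motifs contains another. The 250 bases before the start are shown for the ligand with a CRE and for the ligand with none of the motifs, with motif letters in capitals, 5′ to 3′ on the gene's strand.
Areg (chr14:17265642-17265891, - strand): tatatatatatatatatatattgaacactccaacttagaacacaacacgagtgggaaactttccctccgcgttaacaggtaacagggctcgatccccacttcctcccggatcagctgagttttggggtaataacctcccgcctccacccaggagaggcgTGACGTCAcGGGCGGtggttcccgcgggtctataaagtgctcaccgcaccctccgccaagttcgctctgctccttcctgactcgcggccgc
Hbegf (chr18:28390221-28390470, - strand): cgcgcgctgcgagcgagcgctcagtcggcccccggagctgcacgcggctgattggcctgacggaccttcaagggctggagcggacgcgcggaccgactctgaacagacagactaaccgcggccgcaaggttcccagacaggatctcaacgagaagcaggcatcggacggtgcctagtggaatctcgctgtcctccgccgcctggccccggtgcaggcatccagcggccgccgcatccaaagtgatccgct
The Areg window held a CRE 91 bases before the start and a GC box 82 bases before it. A CRE was found in 1 of the 6 member windows, against 1.83% of all 33469 windows. GC boxes were found in 5 of 6 (Egfr, Erbb2, Areg, Btc and Tgfa), against 33.1% of windows. AP-1 letters were in 0 of 6, against 7.33%. These are letter matches only.

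The genes whose log2 signal over the 8 arrays was most like that of the 2 lead members were found by Pearson correlation among 10055 genes well above background on every array. For Erbb2 they included Arl6ip1 (r = 0.994) and Vangl2 (0.992). For Hbegf they were Mob1b (0.997), Abhd10 (0.996) and Gramd2a (0.996). The 2 groups stand apart on most genes, so these values carry the group difference too, and the arrays of a group share a slide.

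The wider pathway was described from a list of 73 genes in 8 roles, chosen with earlier results of these data known. Probes of 68 were on the array, 62 were measured, and 19 were called higher and 26 lower, with 17 not called. The median difference was -0.13, against 0.04 over all measured genes, and the shares called higher and lower over all genes were 35.7% and 29.0%. With spike-in scaling the split was 39 higher and 12 lower. Among the genes named below, that scaling ended the calls of Errfi1 (-0.12), Gab1 (-0.04), Pik3cb (-0.29), Socs5 (0.04), Cblb (0.17), Adam17 (0.17) and Rhbdf2 (-0.20). It turned Rasa1 (0.21), Map2k1 (0.25), Hgs (0.18), Rnf41 (0.37) and Crk (0.41) from called lower to called higher.

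**Figure D5:**
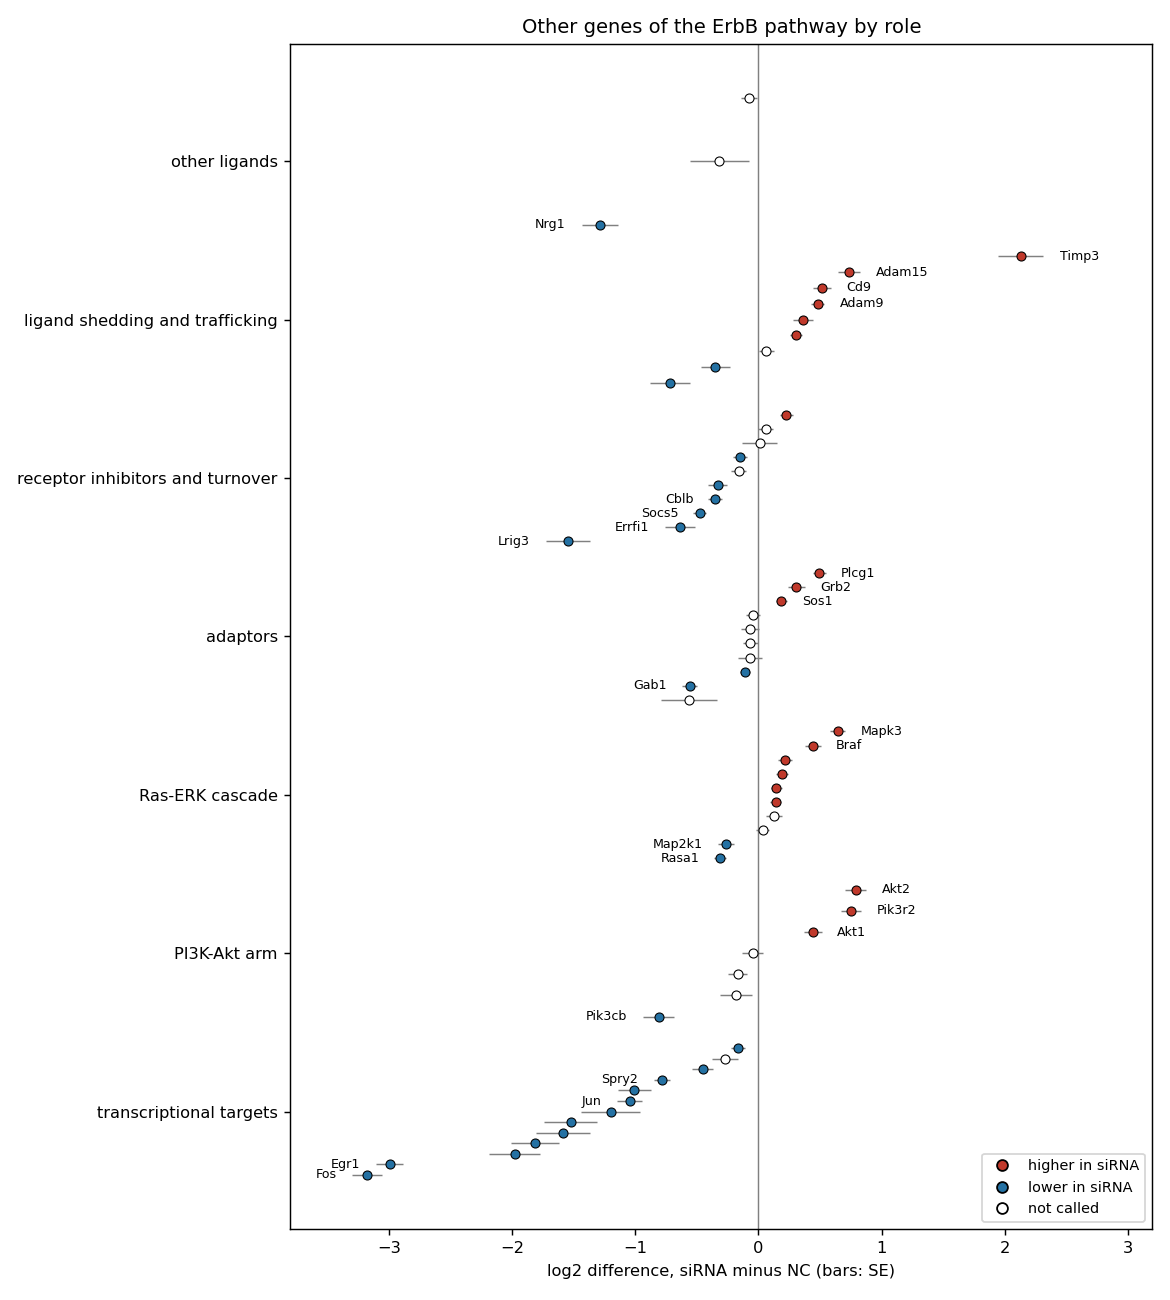
Log2 difference, siRNA minus NC (x axis, bars give the SE), of the 62 measured pathway genes grouped by role (rows), red where called higher, blue where called lower and white where not called; named points are those described in the text. The transcriptional targets sit to the left, with Fos at -3.18 and Egr1 at -2.99, and Timp3 stands to the right at 2.13.

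Of the other ligands, 3 were measured, of which 1 was called lower and 2 were not called. Nrg1, a ligand of Erbb3 and Erbb4, fell by 1.29 ± 0.15 (SE), 2.44-fold, with an adjusted p of 0.000193, and a second probe of it differed by -2.07. Erbb4, the remaining receptor, did not pass the background filter.

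Of 9 measured genes of ligand shedding and trafficking, 6 were higher and 2 lower, with a median of 0.36. Timp3, an inhibitor of metalloproteases, rose by 2.13 ± 0.18 (SE), 4.38-fold, with an adjusted p of 5.14e-05. It was well above background on 4 of 4 arrays of each group, but its NC mean was dim, at -3.75 ± 0.39 (SD, n = 4). The lowest signals that counted as well above background on NC arrays were -4.55 to -4.08. How far this fold depends on background subtraction is not shown. The proteases Adam15 and Adam9 rose by 0.73 and 0.48. The 2 lower genes, named after their values were seen, were the protease Adam17 (-0.35) and Rhbdf2 (-0.72). Cd9, a tetraspanin that associates with membrane-anchored Hbegf, rose by 0.52.

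Of 10 measured genes of receptor inhibition, turnover and sorting, 1 was higher and 6 lower, with a median of -0.25. The higher one, Usp8, a deubiquitinase named after its values were seen, differed by 0.23 on its brightest probe and by -0.39 and -0.16 on its other probes, of which 1 was called in the opposite direction. Errfi1, which binds and restrains the Egfr kinase, fell by 0.63 ± 0.12 (SE). Lrig3, of a family of receptor-binding membrane proteins, was well above background on 0 of 4 siRNA and 4 of 4 NC arrays. It was at least 2.44-fold lower, or at least 1.71-fold with spike-in scaling, both with the scanner software's background subtraction. Socs5, a suppressor of cytokine signalling protein, and the ubiquitin ligase Cblb fell by 0.48 and 0.35, but with spike-in scaling their differences turned to 0.04 and 0.17. Under that scaling only Lrig3 of this role stayed called lower. Lrig1 (0.57), Rnf41 (0.37), Ptprj (0.53), Spred1 (0.36), Usp8 (0.74) and Hgs (0.18) were then called higher, all named after their values were seen. The direction of this role therefore depended on the scaling.

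Of 10 adaptors, 3 were higher and 2 lower. Plcg1, a phospholipase recruited to active receptors, rose by 0.49, and Grb2 and Sos1, the link to Ras, rose by 0.31 and 0.19. Gab1, a docking protein, fell by 0.56 on its brightest probe, and its other probe differed by -1.45. Crk, the other lower adaptor, named after its values were seen, differed by -0.11 on its brightest probe (adjusted p 0.0497 in limma). Its other probes differed by -0.41, -0.78 and 0.44, and the last was called in the opposite direction. With spike-in scaling Crk was called higher, by 0.41.

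In the Ras-ERK cascade, 6 of 10 were higher and 2 lower, with a median of 0.14. Mapk3 (ERK1) rose by 0.65 ± 0.06 (SE) and Braf, a kinase below Ras, by 0.44. Rasa1, a GTPase activator of Ras, and Map2k1 (MEK1), the kinase that phosphorylates ERK, fell by 0.31 and 0.26. With spike-in scaling both were instead called higher, by 0.21 and 0.25.

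In the PI3K-Akt arm, 3 of 7 were higher and 1 lower. Akt2 and Akt1, the kinases of that arm, rose by 0.79 and 0.44, and Pik3r2, a regulatory subunit of PI3K, rose by 0.75. Pik3cb, a catalytic subunit, fell by 0.81.

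Of 13 transcriptional targets, 12 were lower and 0 higher in the limma fit, with 1 not called. Their median was -1.20, and 9 were called at least 2-fold lower. Over all measured genes, 29.0% were called lower and 8.91% were called at least 2-fold lower. Fos, an immediate early gene and AP-1 subunit, fell by 3.18 ± 0.12 (SE), 9.05-fold, with an adjusted p of 9.70e-07. The siRNA mean of Fos was dim, at -3.09 ± 0.20 (SD, n = 4), though well above background on 4 of 4 siRNA arrays. Egr1, another immediate early gene, fell by 2.99 ± 0.11 (SE), 7.97-fold. Jun, the partner of Fos, fell by 1.05 and Spry2, a feedback inhibitor of receptor signalling, by 0.79. With spike-in scaling, 10 of the targets were lower and 1 higher. Jun (-0.53), Dusp4 (-0.49) and Ier3 (-0.68) were then no longer 2-fold lower, the last 2 named after their values were seen.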

How the data were processed

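The 8 RNA samples of BRL-3A cells (4 siRNA, 4 NC) were hybridised to 1-colour Agilent rat arrays, per the labels' protocols. Spot intensity was read from the deposited scanner files, made with Agilent Feature Extraction 12.0.3.1 per the file headers (12.0 per the submitters' processing notes), background-subtracted and not scaled between arrays. The authors' deposited table of log2 values covered 86 probes, 0 of them of these genes. Processed intensities were taken to log2 minus the array's 75th percentile, control and outlier spots left out, and spots of a probe averaged. The siRNA and NC arrays were tested against each other in limma 3.58.1 (R 4.3.3; lmFit, eBayes, two-sided, Benjamini-Hochberg); the fit was tested on simulated data. A gene was represented by its brightest tested probe. Names came from the RefSeq table of GRCr8 for accessions (18028 probes), symbols (3168) or synonyms (400), and from the file alone for 1288; 18128 stayed unnamed. All members were named; in each pathway role up to 4 called genes with the smallest adjusted p were named, and 3 genes most like the lead receptor and ligand, of which 1 is not reported here. The members, gene lists and rules were chosen with earlier results of these data known. Nothing says the arrays are separate cultures, and the p-values cover no more than array-to-array spread, possibly technical. The number of arrays limits precision. Alternatives covered scaling, background correction, dim-probe filters, moderation, a replicate block and leaving out each array.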

Additional observations from a re-analysis of the deposited data

How the results depend on the processing

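Over the 6 tested member probes, 125 alternative values were computed. Of these, 118 kept direction and side of the threshold, 7 lost the call and 0 reversed. The 118 overstate stability. The median over spots could not move a probe printed once, the permutation p is unadjusted, and some settings were chosen after seeing the data. A stricter filter on dim probes left Btc without a value, and 2 members were then called lower. Hbegf kept its direction and a p under 0.05 in all 21 of its alternatives (-1.23 to -0.63), the unadjusted permutation p included. With normexp background correction, 0 members were called higher and 1 lower, 2 pathway genes higher and 9 lower, and 3649 probes in all, against 15327. The differences were then 0.52 and 0.19 for Egfr, 0.54 for Erbb2, -0.78 for Areg and -0.81 for Btc, none called. NC replicate 1 held 10 spots dimmer than their local background; without such spots, an alternative chosen after seeing the data, normexp called 2 members higher and 3 lower, 18 and 27 pathway genes and 15343 probes, and Btc differed by -0.43. Spike-in scaling called 39 pathway genes higher and 12 lower; it ended the call of Areg (-0.57), and the percentile over bright probes that of Egfr A_44_P194138 (0.12); the cause was not tested. Leaving out each array in turn ended no member's call: the ranges were 0.23 to 0.29 and 0.17 to 0.23 for Egfr, 0.81 to 1.03 for Erbb2, -1.18 to -1.11 for Hbegf, -1.22 to -0.88 for Areg and -2.08 to -1.38 for Btc. The labels do not state that replicate numbers pair the samples. Correlations of same-numbered deviations were 0.01, 0.03, -0.03 and 0.21, and 1 of 4 siRNA arrays matched its own number best. These values cannot decide whether the samples were paired. With the replicate block, 2 members were higher and 3 lower and 14985 probes were called. The authors' series table gave no value for any member. Signal over background limits Erbb3, Ereg, Tgfa and Btc, and slide and scan are shared within each group.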
